A study of Homo sapiens with 6 samples.

Results

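A set of 9 genes, 8 for proteins of the epithelial cell surface and NCCRP1 for an intracellular protein of epithelia, was examined among the 58735 genes of the deposited table: CEACAM7, CEACAM1, CEACAM5, CEACAM6, CEACAM19, MUC16, MUC1, MSLN and NCCRP1. They were picked by gene name with their changes after FUBP1 knockdown already known, so the siFUBP1 and siMock values given for them are a description and carry no test. RNA sequencing was done on cells labelled MG63, an established human osteosarcoma line, in 3 samples given siRNA against FUBP1 (siFUBP1) and 3 samples given a negative control (siMock), all taken 48 h after transfection. All 6 samples share the cell line and the transfection. They differ by the siRNA, and the labels do not say which of the study's FUBP1 siRNAs was sequenced, nor whether the 3 samples of a group came from separate cultures. The p-values below therefore measure the spread between these samples, which may be technical.

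CEACAM proteins are cell adhesion molecules of the immunoglobulin superfamily. CEACAM5 (carcinoembryonic antigen), CEACAM6 and CEACAM7 are held at the outer face of the membrane by a GPI lipid anchor, whereas CEACAM1 spans the membrane and has a signalling tail. MUC1 and MUC16 are membrane mucins, long proteins covered with O-linked sugars that form the glycocalyx on the apical side of epithelia, and MUC16 carries the CA125 antigen and binds mesothelin, the GPI-anchored product of MSLN. NCCRP1 is related to the sugar-binding F-box proteins and is known from squamous epithelia. These genes are familiar as carcinoma antigens and are not typical of bone cells.

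On GRCh38, 7 of the 9 genes lie on chromosome 19 and 2 elsewhere (MUC1 on chromosome 1, MSLN on chromosome 16). CEACAM7 (ENSG00000007306, 41673307 to 41706976, minus strand) and CEACAM5 (ENSG00000105388, 41708585 to 41729798, plus strand) are separated by 1.6 kb, and CEACAM6 (ENSG00000086548, 41750977 to 41772208, plus strand) follows after 21.2 kb. CEACAM1 (ENSG00000079385, 42507304 to 42561234, minus strand) is 735.1 kb further on, and CEACAM19 (ENSG00000186567, 44662278 to 44684359, plus strand) another 2101.0 kb. MUC16 (ENSG00000181143, 8848844 to 8981342, minus strand) and NCCRP1 (ENSG00000188505, 39196961 to 39201884, plus strand) lie before this cluster, NCCRP1 at 2471.4 kb from CEACAM7. The remaining loci are MUC1 (ENSG00000185499, chromosome 1, 155185824 to 155192916, minus strand) and MSLN (ENSG00000102854, chromosome 16, 760762 to 768865, plus strand).

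The promoters of the 4 CEACAM genes found in the RefSeq table are shown because 3 of these neighbours had very unequal read counts in the same cells while their promoters are close in sequence. Each window runs from 250 bases before to 50 after the RefSeq start (build GRCh38.p14), 5′ to 3′ on the gene's strand. The RefSeq start lay downstream of the GENCODE gene start by 18706 bases for CEACAM7 and 32753 for CEACAM1. For CEACAM6 it was 4553 and for CEACAM5 41, so the windows are spaced otherwise than the gene spans. Capitals mark an E-box (CACGTG), a GC box (GGGCGG or its complement) or a TATA box (TATAAA), sought on both strands; none of these motifs overlapped another in the windows shown. The motifs were picked after the sequences had been seen.
CEACAM7, chr19:41688221-41688520, minus strand: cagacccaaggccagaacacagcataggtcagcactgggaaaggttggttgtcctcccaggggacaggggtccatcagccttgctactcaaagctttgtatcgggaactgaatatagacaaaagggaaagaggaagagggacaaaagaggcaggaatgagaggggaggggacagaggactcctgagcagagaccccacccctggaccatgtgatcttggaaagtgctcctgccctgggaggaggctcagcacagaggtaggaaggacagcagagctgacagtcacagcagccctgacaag
CEACAM5, chr19:41708376-41708675, plus strand: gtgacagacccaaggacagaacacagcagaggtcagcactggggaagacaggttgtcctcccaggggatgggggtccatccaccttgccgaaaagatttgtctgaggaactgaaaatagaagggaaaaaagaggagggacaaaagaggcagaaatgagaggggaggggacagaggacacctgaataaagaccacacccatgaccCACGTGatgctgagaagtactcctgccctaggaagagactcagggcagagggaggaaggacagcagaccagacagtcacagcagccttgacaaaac
CEACAM6, chr19:41755280-41755579, plus strand: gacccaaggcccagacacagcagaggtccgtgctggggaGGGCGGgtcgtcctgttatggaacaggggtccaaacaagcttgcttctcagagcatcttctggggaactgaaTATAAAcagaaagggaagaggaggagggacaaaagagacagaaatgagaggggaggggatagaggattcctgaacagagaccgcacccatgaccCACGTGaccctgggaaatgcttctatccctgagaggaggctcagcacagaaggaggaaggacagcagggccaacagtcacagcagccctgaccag
CEACAM1, chr19:42528432-42528731, minus strand: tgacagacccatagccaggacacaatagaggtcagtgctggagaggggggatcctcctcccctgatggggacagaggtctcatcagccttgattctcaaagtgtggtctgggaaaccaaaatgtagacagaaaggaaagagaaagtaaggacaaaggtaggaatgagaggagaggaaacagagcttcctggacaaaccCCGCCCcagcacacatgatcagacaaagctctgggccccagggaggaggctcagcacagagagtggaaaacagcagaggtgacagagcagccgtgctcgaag

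In pairwise alignment the CEACAM7 window was 81.4% identical to that of CEACAM5, 81.2% to that of CEACAM6 and 73.4% to that of CEACAM1. The E-box stood at positions 205 to 210 of the CEACAM5 window, counted from its 5′ end, and was kept at the aligned place in CEACAM6. The aligned place differed from CEACAM5 by 1 substitution in CEACAM7 (C207T, giving CATGTG) and by 1 in CEACAM1 (G208A, giving CACATG). Only the exact form CACGTG was sought, so other forms of the E-box are not marked. The form CACGTG is found in 7.26% of 35116 RefSeq promoter windows of the same length, the GC box in 45% and the TATA box in 11.5%. CEACAM6 also held 1 GC box and 1 TATA box, and CEACAM1 held 1 GC box. A match is a run of letters and not a measured site. For MUC1 the RefSeq window (chr1:155192866-155193165, minus strand) held 4 GC boxes, some overlapping each other, 1 TATA box and no CACGTG. The 2 RefSeq starts of MUC16 lie 84409 and 29067 bases upstream of every GENCODE start of the gene and their windows are not shown. NCCRP1, MSLN and CEACAM19 had no entry.

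Total counts lay between 16309900 and 17484313 per sample. FUBP1 itself, the targeted gene, had 3872, 4331 and 4282 counts in siMock and 749, 752 and 926 in siFUBP1, so the labels of both groups match its level. Counts were compared with edgeR's quasi-likelihood test over 16116 genes that passed its filter on low counts, with Benjamini-Hochberg adjustment. Calls needed an adjusted p under 0.05 together with a log2 fold change beyond 1 in size. By this rule 9.13% of the tested genes were called lower in siFUBP1, 8.16% higher and 17.3% in either direction. In 31.7% of the tested genes all 3 siFUBP1 samples lay below all 3 siMock samples, and in 32.2% above. CPM below is the usual library-scaled count, here with TMM-scaled library sizes. The filter's level of 0.599 CPM and the limit given for a count of 0 use total counts without TMM factors.

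The labelled cell type was first set against its defining markers. COL1A2, a chain of the type I collagen of bone, had a count of 0 in all 6 samples. SPARC (osteonectin) had 0 to 5 counts per sample and CDH11 (osteoblast cadherin) 0 to 1. The count of RUNX2, the master regulator of osteoblasts, ranged from 6 to 8 in siMock and from 39 to 97 in siFUBP1. COL1A1 (1692 to 2000 counts in siMock) and VIM (2312 to 2589) were read in every sample. FN1 (fibronectin) had 1639 to 2056 counts in siMock, and the wider bone and mesenchymal list was led by S100A4 and COL5A1, at 729 and 472 CPM in siMock. COL1A2, SPARC and CDH11 thus go against the label, while COL1A1, VIM and FN1, which other cells also make, were read. The cause was not tested.

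Keratins of simple epithelia were high in the same samples. KRT8 stood at 1989 ± 154 CPM in siMock and 993 ± 56.8 CPM in siFUBP1 (SD, n = 3). For KRT18, its partner, siMock gave 10755 to 12282 counts and siFUBP1 7498 to 7888. EPCAM had 59 to 83 counts over the 6 samples, CDH1 (E-cadherin) 8 to 22, and KRT19, GRHL2 and ESRP1 at most 3. Of the blood cell markers PTPRC had 0 to 2 counts and CD3E 0.

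**Figure D1:**
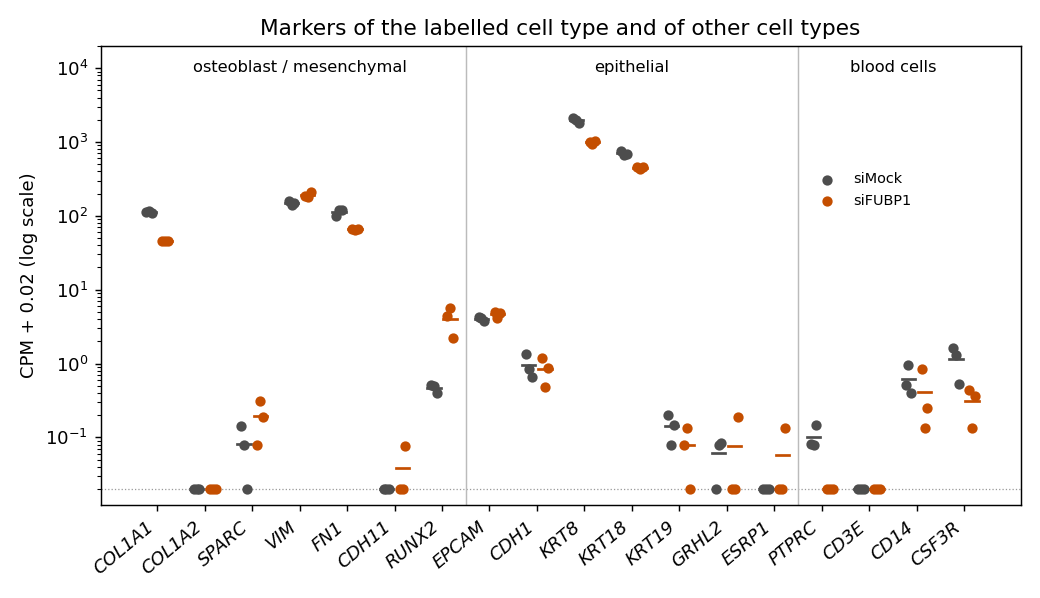
CPM with a small offset (log axis) of 7 osteoblast and mesenchymal, 7 epithelial and 4 blood cell markers, 1 dot per sample with a line at the group mean, siMock in grey and siFUBP1 in orange. Dots on the dotted line are samples with a count of 0: COL1A2 and CD3E sit there in all 6 samples, while KRT8 lies near the top at 1989 CPM in siMock.

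Of the 9 genes, 7 passed the filter and 2 did not (CEACAM5 and CEACAM6). CEACAM1 passed through its siMock samples alone, since no more than 1 of its siFUBP1 samples exceeded the filter's level. Among the 7, 6 met the calling rule as lower, against 9.13% of all genes tested, but they were picked on this very contrast and nothing is read from that count. The same 6 had all siFUBP1 samples below all siMock samples (31.7% of all genes). The median log2 fold change of the 7 was −2.38, and that of all genes tested 0.00198. The summed level of 52 epithelial identity genes was lower too, at 6156 to 6943 CPM in the siMock samples and 3869 to 3930 CPM in the siFUBP1 samples. That of 20 bone and mesenchymal genes was lower as well, at 1614 to 1631 CPM in siMock and 1076 to 1161 CPM in siFUBP1. The part of either sum in the values of the 9 genes was not tested. In bulk RNA, fewer cells of a type and less RNA per cell cannot be told apart.

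**Figure D2:**
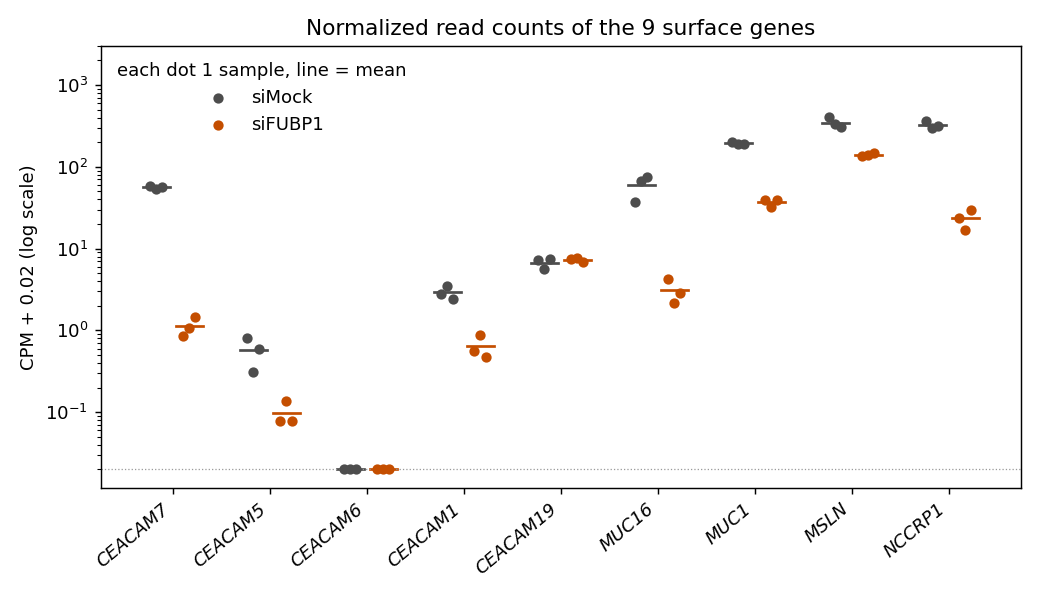
CPM with a small offset (log axis) of the 9 genes, 1 dot per sample with a line at the group mean, siMock in grey and siFUBP1 in orange. CEACAM7 is at 56.1 CPM in siMock and 1.10 CPM in siFUBP1, CEACAM19 overlaps between the groups, and CEACAM6 sits on the dotted line that marks a count of 0.

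CEACAM7, a GPI-anchored protein best known from the apical face of colonic epithelium, showed the steepest difference of the set. It had 946, 911 and 887 counts in siMock and 14, 18 and 25 in siFUBP1. Every siMock sample was far above every siFUBP1 sample, and the spread within each group was small beside the gap. The level was 56.1 ± 2.26 CPM in siMock and 1.10 ± 0.306 CPM in siFUBP1 (SD, n = 3), or 1.96% of siMock, with a log2 fold change of −5.66 (SE 0.148). In order of fold change from the lowest, CEACAM7 was number 2 of 16116 genes. Leaving out each sample in turn gave −5.90 to −5.49. No 50-base stretch of its longest coding transcript occurs in another gene and no exon overlaps another gene, so reads of that length or longer would not match its relatives in full.

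CEACAM5, carcinoembryonic antigen, starts 1.6 kb from the outermost GENCODE end of CEACAM7 and was barely read. It had 13, 5 and 9 counts in siMock and 1, 2 and 1 in siFUBP1. The groups did not overlap, but all values are within a few reads. Summed over samples, 27 reads stood against 4, a ratio of siFUBP1 to siMock of 0.150 per library size, with an exact 95% interval of 0.0381 to 0.430 that covers counting error only. Of its 50-base stretches 19.96% also occur in another gene, most often AC243967.1, CEACAM6 and CEACAM3. In addition, 544 exonic bases overlap AC243967.1, so these few reads are of uncertain origin.

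CEACAM6, the third GPI-anchored gene of this cluster, had a count of 0 in all 6 samples. A count of 0 allows up to 0.184 CPM by total counts, without TMM factors, in the shallowest sample, again for counting error only. Within 100 kb of chromosome 19, therefore, siMock cells held a well-read gene, a gene at a few reads and a gene with none. Of the 50-base stretches of CEACAM6, 7.92% occur in another gene.

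CEACAM1, the transmembrane member with an inhibitory signalling tail, was low in both groups. It had 45, 59 and 38 counts in siMock and 9, 15 and 8 in siFUBP1. The lowest siMock sample was above the highest siFUBP1 sample. The means were 2.89 ± 0.531 and 0.619 ± 0.216 CPM (SD, n = 3), with a log2 fold change of −2.21 (SE 0.341), which was −0.45 on the log2(FPKM + 1) scale, where low genes are compressed. The gene shares 185 exonic bases with LIPE-AS1 on the opposite strand, and use of strand in counting is not stated, so reads in that stretch cannot be assigned to 1 of the 2 genes.

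CEACAM19, a more distant member of the family, was read at similar counts in both groups. It had 117, 96 and 115 counts in siMock and 127, 131 and 118 in siFUBP1. In raw counts all 3 siFUBP1 samples lay slightly above the siMock samples, and in CPM the groups overlapped. Means were 6.73 ± 0.939 CPM and 7.28 ± 0.449 CPM (SD, n = 3), with a log2 fold change of 0.115 (SE 0.162) that ranged from 0.00342 to 0.179 over the fits leaving out 1 sample. Its exons share 121 bases with PVR on the same strand.

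MUC16, the mucin of the CA125 antigen, had 611, 1151 and 1171 counts in siMock and 72, 37 and 49 in siFUBP1. The first siMock sample was well below the other two, yet far above every siFUBP1 sample. The level was 60.1 ± 19.9 CPM in siMock and 3.07 ± 1.09 CPM in siFUBP1 (SD, n = 3), or 5.11% of siMock, with a log2 fold change of −4.29 (SE 0.437). It was number 12 of 16116 genes from the lowest. Leaving out each sample gave −4.59 to −4.08, and the log2(FPKM + 1) scale gave −1.12, since the counts are spread over a gene length of 43830 bases.

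MUC1, the membrane mucin with a signalling tail, was read 3321, 3189 and 2958 times in siMock and 672, 558 and 690 times in siFUBP1. The samples of each group lay close together and the groups were well apart. Means were 194 ± 8.68 and 37.2 ± 4.32 CPM (SD, n = 3), or 19.2% of siMock, with a log2 fold change of −2.38 (SE 0.0887). Of its exonic bases 48 overlap AL713999.1.

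MSLN, whose product is the binding partner of MUC16, had 6574, 5702 and 4728 counts in siMock and 2298, 2427 and 2560 in siFUBP1. The siMock samples were more spread than the siFUBP1 samples, and the groups did not overlap. With 347 ± 51.0 CPM in siMock and 141 ± 5.35 CPM in siFUBP1 (SD, n = 3), its log2 fold change of −1.30 (SE 0.0899) was the smallest among the 6 genes that met the calling rule. It was number 900 of 16116 from the lowest, at 40.6% of its siMock level against 5.11% for MUC16.

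NCCRP1, the F-box relative, had 5899, 5027 and 4899 counts in siMock and 398, 296 and 517 in siFUBP1. All siMock samples were far above the highest siFUBP1 sample. The level was 324 ± 33.9 CPM in siMock and 23.4 ± 6.28 CPM in siFUBP1 (SD, n = 3), or 7.23% of siMock, with a log2 fold change of −3.79 (SE 0.18). It was number 27 of 16116 genes, and 0.467% of its 50-base stretches occur elsewhere.

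Levels can be compared between genes per length, as FPKM. In siMock the order by mean FPKM was NCCRP1 (162), MSLN (134), MUC1 (40.6), CEACAM7 (20.9), MUC16 (1.35), CEACAM19 (1.28), CEACAM1 (0.517), CEACAM5 (0.164) and CEACAM6 (0). NCCRP1 (148 to 181) and MSLN (117 to 156) overlapped between samples, as did MUC16 (0.844 to 1.69) and CEACAM19 (1.08 to 1.40), whereas the other neighbours in this order did not. In siFUBP1 MSLN led with 54.7 FPKM, followed by NCCRP1 (11.8), MUC1 (7.83), CEACAM19 (1.39), CEACAM7 (0.412), CEACAM1 (0.111), MUC16 (0.0695) and CEACAM5 (0.0229). There CEACAM1 (0.0823 to 0.156) and MUC16 (0.0486 to 0.0965) overlapped. CEACAM7, above CEACAM19 in siMock, stood below CEACAM19 in siFUBP1.

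The genes whose log2 CPM ran most like these over the 6 samples were named by Pearson's r among the 10443 coding genes averaging 100 counts or more. For CEACAM7 they were CHCHD3 (r = 0.9998), TMEM64 (0.9996) and OLFML1 (0.9996). For MUC16 they were WNK1 (0.9991), RABGAP1L (0.9983) and CRTC3 (0.9982), and for NCCRP1 BACE2 (0.9997), USH1C (0.9997) and RBBP7 (0.9995). With 2 groups of 3 samples these r values carry mostly the difference between the groups. The log2 fold changes of the 9 named genes ranged from −2.35 (TMEM64) to −0.64 (RBBP7). Pearson's r ignores the size of a change, and CEACAM7, MUC16 and NCCRP1 were among the lowest of all genes tested. Nothing is therefore read from the smaller changes of the named genes.

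The guide strands of the study's 3 FUBP1 siRNAs are shown because a guide can also lower mRNAs that match its seed, bases 2 to 8, in capitals.
RNAi#1: uAAACUGAaugcgaacacctt
RNAi#2: uAAGAGGUuugucagcacctt
RNAi#3: uUUCUUCUaugaguugccgtt

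Complements of the seeds were sought in the 3′ UTRs of all coding GENCODE transcripts of each gene. CEACAM7 held 1 site for RNAi#1 (aattaaccaaTCAGTTTatttaa, site in capitals), and CEACAM1 held 1 for RNAi#1 (tagatttaacTCAGTTTctaggc) and 1 for RNAi#2 (atactcaggtACCTCTTtcaggg). MUC1 held 2 overlapping sites for RNAi#3 in a transcript with a 3′ UTR of 425 bases, and CEACAM5, CEACAM6, CEACAM19, MUC16, NCCRP1 and MSLN held none for any guide. Among 12588 tested genes with a 3′ UTR, 25% held the RNAi#1 site, 15.7% the RNAi#2 site and 26% the RNAi#3 site. MUC16 and NCCRP1, next to CEACAM7 in the set by fold change, were thus without a site in 3′ UTRs of 88 and 1128 bases. Which guide was used, and what part the sites have in the changes, was not tested.

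The surroundings of the 9 genes were examined over 250 kb on either side, since position was not used to pick them. Among 96 tested neighbours, counted once each, 7 were called lower and 6 higher by edgeR's test. This is 13.5%, against 17.3% of all genes tested, and the median log2 fold change of the neighbours was −0.22. Around CEACAM7, 5 neighbours were tested. The 1 that was called, LINC01480, rose from 0.304 to 0.946 CPM (log2 fold change 1.61, adjusted p = 0.0054 by edgeR's test with Benjamini-Hochberg adjustment), against the direction of CEACAM7. GRIK5, a glutamate receptor subunit near CEACAM6, rose as well, from 0.324 to 1.43 CPM (2.11, edgeR adjusted p = 0.000156). The siMock means of LINC01480 and GRIK5 lay below the filter's level of 0.599 CPM, which favours a call of higher. Around CEACAM1, 6 neighbours were tested, with 1 called lower and 0 higher. Their median log2 fold change was −0.69, in the direction of CEACAM1.

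Next to MUC16, the zinc finger gene ZNF558 at 16.5 kb rose from 13.6 to 30.9 CPM (log2 fold change 1.19, edgeR adjusted p = 2.78e-10), and ADAMTS10, a matrix protease at 238 kb, fell by 2.78 on the log2 scale (edgeR adjusted p = 7.7e-09). Near MUC1, SLC50A1, a sugar transporter, rose from 87.6 to 224 CPM (1.36, edgeR adjusted p = 8.74e-14) and was the 1 called of 33 tested. Neighbours of CEACAM19 moved while CEACAM19 did not pass the rule. The adhesion genes BCAM (log2 fold change −1.28) and NECTIN2 (−1.43) fell and ZNF229 rose (1.62), with edgeR adjusted p of 2.08e-10, 7.1e-12 and 1.13e-07. Of 28 tested neighbours of MSLN, FAM173A (−1.40), RHBDL1 (−1.64) and LMF1 (−1.65) were lower. Around NCCRP1 the F-box gene FBXO27, described below, was called of 10 tested, and its call was lost in several fits.

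The other genes of the same pathways were read from lists. All lists were chosen with earlier results of these data known, so the shares called in them are descriptions. Among 17 other CEACAM and pregnancy-specific glycoprotein (PSG) genes, the closest relatives of the CEACAM genes, 6 were tested. Of these PSG5 fell (5.70 to 2.04 CPM, log2 fold change −1.48, edgeR adjusted p = 4.86e-06) and PSG4 (17.5 to 38.0 CPM, 1.12) and PSG6 (0.451 to 2.38 CPM, 2.39) rose, with edgeR adjusted p of 1.54e-09 and 9.02e-06. The siMock mean of PSG6 lay below the filter's level of 0.599 CPM, which favours a call of higher. The called share was 50% of 6 genes, against 17.3% of all genes in either direction, and the list's median was 0.496. PSG genes are near-identical to each other, and reads could be split or moved between them by the counting.

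Of 22 other mucin genes 12 were tested, and 8 were called lower and 0 higher, or 66.7% against 9.13% of all genes called lower, with a median log2 fold change of −1.61. This list too was chosen with earlier results known, so its share is not an independent test. At an unadjusted p below 0.05 the edgeR test gave 10 lower and 1 higher, and DESeq2 called 8 lower and 0 higher. MUC13, a membrane mucin of the intestine, was the best read of those called. It stood at 321, 306 and 350 CPM in siMock and at 91.7, 67.5 and 118 CPM in siFUBP1, without overlap (log2 fold change −1.81, SE 0.201, edgeR adjusted p = 0.000278).

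Of the secreted gel-forming mucins, 3 fell from a low level. MUC5B went from 13.3 ± 1.23 to 2.83 ± 0.787 CPM (SD, n = 3; log2 fold change −2.23, edgeR adjusted p = 6.52e-11). MUC5AC (2.31 to 0.311 CPM, −2.87, edgeR adjusted p = 3.4e-06) and MUC2 (2.41 to 0.524 CPM, −2.19, edgeR adjusted p = 3.72e-05) fell too. The siFUBP1 means of MUC5AC and MUC2 lay below the filter's level of 0.599 CPM. Both thus depended on their siMock samples to be tested, which favours a call of lower. MUC6 was not called and overlapped between the groups (2.43 and 1.49 CPM, −0.70), and MUC19 had a count of 0 in every sample. The membrane mucin MUC3A (−1.65) and SELPLG (−1.67), the selectin ligand of leukocytes, fell as well, with edgeR adjusted p of 0.000419 and 0.000336. The most abundant sialomucins did not pass the rule: CD164 stood at 159 CPM in siMock and 293 in siFUBP1 (log2 fold change 0.88), and PODXL at 240 and 197 (−0.29). On log2(FPKM + 1), limma called 1 mucin gene and on log2(FPKM + 0.1) 4.

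The enzymes that put O-linked sugars on mucins moved in both directions. Of 33, 17 were tested and 4 were called lower and 1 higher (29.4% against 17.3%), with a median of −0.33. ST6GALNAC2, a sialyltransferase, fell from 1.66 ± 1.05 to 0.0778 ± 0.0352 CPM (SD, n = 3). Its log2 fold change was −4.30 (edgeR adjusted p = 2.61e-06), with 11, 47 and 24 counts in siMock and 2, 1 and 1 in siFUBP1. The siFUBP1 mean of ST6GALNAC2 lay below the filter's level of 0.599 CPM. The gene thus depended on its siMock samples to be tested, which favours a call of lower. GCNT1, which branches core structures, fell (11.6 to 4.45 CPM, −1.38, edgeR adjusted p = 3.31e-08), and GCNT3, a branching enzyme of mucin-secreting tissues, rose (12.7 to 31.5 CPM, 1.31, edgeR adjusted p = 4.15e-10). The starting enzymes GALNT9 (−1.26, edgeR adjusted p = 5.21e-08) and GALNT12 (−1.04, edgeR adjusted p = 0.0251) fell. GALNT12 overlapped between the groups, and its call was lost with the library size alone, DESeq2 or the replicate block (−0.98), and when siMock replicate 2 (−0.57) or either of siFUBP1 replicates 1 (−0.94) and 2 (−0.98) was left out. The abundant GALNT1 (150 and 261 CPM, 0.80) and GALNT2 (327 and 360 CPM, 0.14) did not pass the rule.

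The GPI anchor that holds CEACAM5, CEACAM6, CEACAM7 and MSLN on the membrane is made by 30 genes of the list, of which 29 were tested. There 1 was called lower and 0 higher (3.45% against 17.3%), with a median of 0.059, while an unadjusted p below 0.05 was reached by 10 lower and 6 higher and DESeq2 called 1 lower and 0 higher. The 1 was PIGZ, a mannosyltransferase (1.87 to 0.698 CPM, log2 fold change −1.42, edgeR adjusted p = 0.00138). PIGT (203 and 222 CPM) and GPAA1 (98.4 and 103 CPM), both of the transamidase that attaches the anchor, had log2 fold changes of 0.13 and 0.06.

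Of 23 binding partners and sheddases of the set, 22 were tested, and 3 were called lower and 0 higher (13.6% against 17.3%). At an unadjusted p below 0.05 these were 10 lower and 7 higher, and DESeq2 called 2 lower and 0 higher. LGALS3, galectin-3, which binds mucin sugars, fell from 451 ± 9.21 to 209 ± 11.3 CPM (SD, n = 3; log2 fold change −1.11, edgeR adjusted p = 2.95e-12). ITGB1, the beta-1 integrin, fell (852 to 383 CPM, −1.15, edgeR adjusted p = 1.16e-11), as did LGALS9 at under 1 CPM (−1.28, edgeR adjusted p = 0.0195), a call lost with DESeq2, without a filter, and in 3 of the 6 fits that left a sample out. FLNA, an actin crosslinker, had a log2 fold change of 0.41.

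All 8 F-box relatives of NCCRP1 and their ligase subunits were tested, with 2 called lower and 1 higher (37.5% against 17.3%). FBXO2, which recognises sugar chains on misfolded glycoproteins, fell from 62.3 ± 8.67 to 23.5 ± 0.893 CPM (SD, n = 3; log2 fold change −1.40, edgeR adjusted p = 6.08e-12). FBXO44 fell as well (22.2 to 6.90 CPM, −1.69, edgeR adjusted p = 5.11e-11). FBXO27 rose (0.605 to 1.39 CPM, 1.18, edgeR adjusted p = 0.0328), but its samples overlapped between the groups. Its call was lost with DESeq2 and without siMock replicate 1 (log2 fold change 0.91), siMock replicate 3 (1.00) or siFUBP1 replicate 2 (0.52), the sample with 42 counts against 15 and 15. The ligase subunits SKP1 (−0.43) and CUL1 (−0.38) did not pass the rule.

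Other carcinoma surface antigens gave a mixed picture. Of 25, 17 were tested, with 5 called lower and 1 higher (35.3% against 17.3%) and a median of −0.22. ALPP, placental alkaline phosphatase and GPI-anchored like MSLN, fell from 804 ± 87.8 to 128 ± 15.6 CPM (SD, n = 3; log2 fold change −2.65, edgeR adjusted p = 3.96e-17), though near-identical phosphatase genes could share its reads. The GPI-anchored PSCA (129 to 39.1 CPM, −1.72), LYPD3 (150 to 46.8 CPM, −1.68) and CD24 (309 to 126 CPM, −1.29) fell too, with edgeR adjusted p of 1.48e-14, 2.81e-14 and 1.05e-12. NECTIN4 fell at 2.14 CPM in siMock (−2.32, edgeR adjusted p = 2.51e-05), and SLC39A6, a zinc transporter, rose (43.2 to 102 CPM, 1.24, edgeR adjusted p = 5.84e-12). FOLR1, the GPI-anchored folate receptor and the best read of the list at 2499 CPM in siMock, had a log2 fold change of −0.22, and L1CAM one of −0.55.

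**Figure D3:**
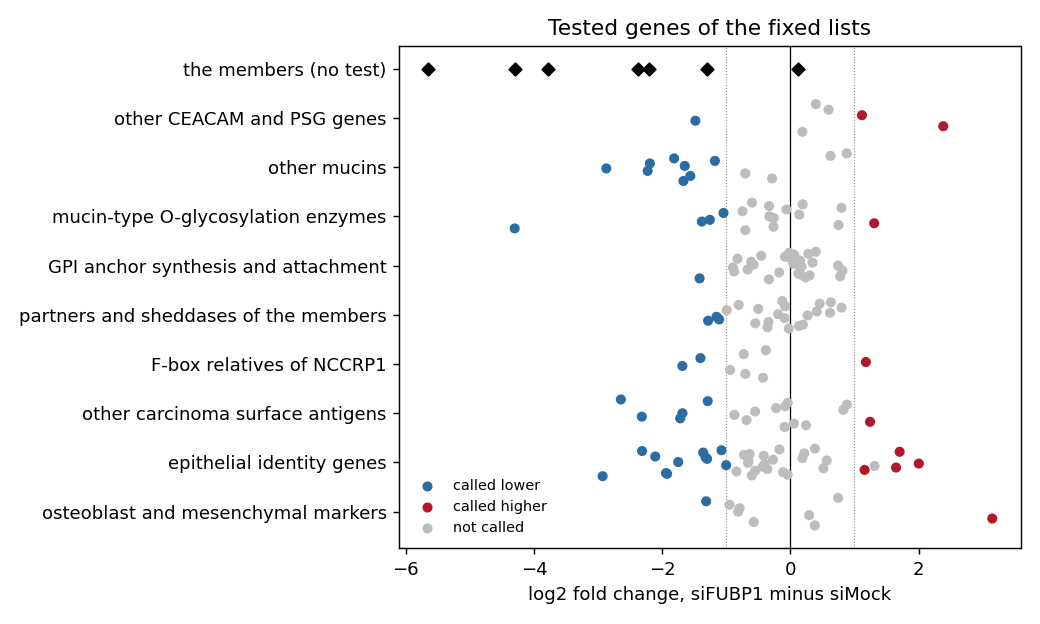
Log2 fold change (siFUBP1 minus siMock) of the genes of the set that passed the filter (black diamonds, no test) and of each tested gene of 9 lists (dots). Dots are blue where called lower, red where called higher and grey where not called, with dotted lines at the fold threshold. The 8 blue dots of the other mucins stand without a red one, while GPI anchor synthesis has 1 blue dot among 29.

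Epithelial identity genes were called lower more often than higher. Of 52, 36 were tested, with 11 called lower and 4 higher (41.7% against 17.3% of all genes, and 30.6% lower against 9.13%) and a median of −0.49. TJP3, a tight junction scaffold, fell most (32.0 ± 3.26 to 4.19 ± 0.850 CPM, SD, n = 3; log2 fold change −2.93, edgeR adjusted p = 2.09e-15), followed by CGN (−2.32, edgeR adjusted p = 4.4e-05). The transcription factor EHF (−2.11) and the protease ST14 (−1.92) with its inhibitor SPINT2 (−1.94) fell, with edgeR adjusted p of 5.65e-08, 1.84e-14 and 9.28e-07.

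Of the 4 that rose, KRT20, a keratin of intestinal surface cells, had few reads (0.345 to 1.41 CPM, log2 fold change 2.00, edgeR adjusted p = 0.000676). Its siMock mean lay below the filter's level of 0.599 CPM, which favours a call of higher. The tight junction gene CLDN1 (55.5 to 181 CPM, 1.70, edgeR adjusted p = 2.06e-14) and MAL2, of apical transport (14.4 to 45.3 CPM, 1.65, edgeR adjusted p = 1.1e-13), were better read, and both are named after their values were seen. In the summed level KRT8 (1989 and 993 CPM) and KRT17 (737 and 219 CPM) had large shares. KRT8 was lower at the fold threshold itself (−1.0, edgeR adjusted p = 2.01e-10), a call lost with the library size alone, with DESeq2, without a filter and without siMock replicate 1 or siFUBP1 replicate 2, and KRT7 (966 and 731 CPM, −0.40) did not pass the rule. On log2(FPKM + 1), limma called 8 of these genes. 

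Of 20 bone and mesenchymal genes 9 were tested, with 1 called lower (COL1A1, 113 to 45.5 CPM, log2 fold change −1.31, edgeR adjusted p = 1.83e-13) and 1 higher (RUNX2, 0.448 to 4.05 CPM, 3.15, edgeR adjusted p = 4.53e-08), or 22.2% against 17.3% of all genes. The siMock mean of RUNX2 lay below the filter's level of 0.599 CPM, which favours a call of higher. The list's summed level was 1614 to 1631 CPM in siMock and 1076 to 1161 CPM in siFUBP1, led by S100A4 (729 and 490 CPM) and COL5A1 (472 and 244 CPM, −0.95), which did not pass the rule, and 3 of its genes were at 0 in all samples. Of the 16 blood cell markers 6 were at 0 in all samples and the summed level was at most 6.68 CPM in any sample.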

How the data were processed

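RNA-seq of 3 siMock and 3 siFUBP1 samples was analysed, grouped by title. Per the labels, poly(A) RNA was made into libraries with the NEBNext Ultra kit; the submitters' processing notes name HISAT2 2.0.5, StringTie 1.3.3b, featureCounts 1.5.0-p3 and DESeq2 1.16.1. The authors deposited read counts per gene without normalization, for identifiers matching GENCODE on GRCh38. The FPKM values were made by the authors per gene length and scaled library size. The authors' deposited group means (a normalized signal), log2 fold changes and p-values from DESeq2 were not used. The comparison used edgeR 4.0.16 (R 4.3.3) with TMM factors, filterByExpr and the robust quasi-likelihood F test, and p-values were adjusted by Benjamini-Hochberg over 16116 genes. TMM factors were 0.959 to 1.05. The test was tested on simulated data. Alternatives were other scalings and filters, DESeq2 1.42.0, limma 3.58.1 on log2 FPKM with 2 pseudocounts, no fold threshold, the replicate block and leaving out samples.

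The 9 genes and all lists were chosen with earlier results of these data known. Named were the 9 genes, FUBP1, the called genes of each list (at most 6, by fold change), its 2 best read tested genes, called neighbours (at most 3 per gene), the defining cell type markers and the 3 genes most like CEACAM7, MUC16 and NCCRP1. The likeness used log2(CPM + 0.1). Sequence sharing was measured on 50-base stretches of GENCODE transcripts, promoters came from RefSeq and the guides from the study's oligonucleotide list. The values of 2 genes that this rule names are not reported here. Intervals and limits from counts cover counting error only.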

Additional observations from a re-analysis of the deposited data

How the results depend on the processing

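Over 20 results and 15 alternatives, 261 of 300 values stayed within the bounds set for them (1 SD between replicates for a fold change, 1.5 times for a count), 39 moved and 0 reversed. A count of calls has no sign to reverse, so that last number speaks only to the fold changes. Without a fold threshold the fold changes are those of the main fit by construction, and they count as unmoved. With limma on log2(FPKM + 1), 462 genes were called higher and 588 lower, with 0 other CEACAM and PSG genes, 1 other mucin, 0 O-glycosylation enzymes, 0 GPI anchor genes, 8 epithelial genes, 1 bone and mesenchymal gene and 6 neighbours. The log2 fold changes were then −3.96 for CEACAM7, −0.45 for CEACAM1, −1.12 for MUC16 and −2.24 for MUC1. With log2(FPKM + 0.1) they were −5.38 for CEACAM7, −1.55 for CEACAM1 and −3.06 for MUC16, and 4 other mucins were called. A larger pseudocount shrinks the change of low genes by its construction. Without a fold threshold, 4844 genes were higher and 4851 lower, with 12 O-glycosylation enzymes, 15 GPI anchor genes, 17 partners and sheddases, 8 F-box relatives, 13 carcinoma antigens, 28 epithelial genes, 8 bone and mesenchymal genes and 59 neighbours. Without a filter on low counts 4 bone and mesenchymal genes and 2 blood cell markers were called, and DESeq2 called 2 blood cell markers, as more genes were tested. Leaving out 1 sample gave 2 to 4 called bone and mesenchymal genes and 1 to 2 blood cell markers (each of the 6 samples). The fits with 4 bone and mesenchymal genes were those without siMock replicate 1, siMock replicate 2 or siFUBP1 replicate 2.

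With the library size alone, 1620 genes were called higher and 1229 lower, against 1315 and 1472. The larger side thus changed, though both counts stayed within their bounds. Of the calls 43.14% were then lower against 52.82%, the median of all genes was 0.0986, and 9 epithelial genes were lower and 5 higher. Samples with the same number did not deviate together (r of −0.0047, 0.017 and 0.123), so the numbers were not taken to pair the samples. With the replicate block 1324 genes were called higher and 1469 lower, CEACAM7 was −5.66 and MUC16 −4.25, and 8 other mucins were called lower. Among the called genes named from the lists and neighbours, FBXO27, GALNT12, KRT8 and LGALS9 lost their call in fits other than limma on FPKM. The other genes kept theirs outside those limma fits. Depth limits CEACAM5 and CEACAM6, at 13 reads or fewer per sample, and the siFUBP1 values of CEACAM1, MUC2 and MUC5AC, at 15 or fewer. Depth likewise limits the siFUBP1 value of CEACAM7, at 14, 18 and 25 reads. It also limits the fold changes of other named genes with few reads in a group. Examples are ST6GALNAC2 and PIGZ in siFUBP1, RUNX2, GRIK5 and LINC01480 in siMock, and LGALS9.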
